A study of Mus musculus with 17 samples.

Results

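Gene expression was compared between mouse embryonic fibroblasts that were wild type (+/+) at Usp28 and transformed with an activated Ras, and +/+ fibroblasts that were only immortalized. The Ras +/+ group holds 2 libraries and the immortalized +/+ group 3, so 5 of the 17 libraries of the study enter the comparison. All cells came from C57BL/6 embryos at E13.5, carried the label MEF, and had been immortalized with a retroviral short hairpin against p19ARF (pRetroSuper-shp19ARF), a product of the Cdkn2a locus. The Ras +/+ cells had in addition received pBabe-HRasG12V, which encodes HRas with the activating change G12V, and the GFP vector pWZL-GFP. The study also has Ras and immortalized groups of the genotypes +/- and -/-, and a Ras +/+ group with pWZL-USP28 in place of the GFP vector, each with 2 (Ras) or 3 (immortalized) libraries. Usp28 encodes a deubiquitinase, an enzyme that takes ubiquitin off other proteins, and the study's title ties it to Fbw7, the substrate receptor of a ubiquitin ligase, and to oncogenic transformation. The labels do not say how many embryos or separate transformations a group stands for.

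HRas is a small GTPase that passes signals from growth factor receptors to the Raf, MEK and ERK kinases and to PI3 kinase. ERK signalling induces immediate-early transcription factors such as Fos and Egr1, and also feedback inhibitors of the Dusp and Spry families. Fibroblasts that carry an activated Ras and lack the Arf barrier are known to grow in an anchorage-independent way, and fibroblasts in general are the main makers of collagen-rich extracellular matrix.

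The deposited tables hold comparisons between groups and no values for single libraries, so each level below is the sum over a group's libraries in reads per 1000000 (RPM), and no spread between replicates can be given for a gene. Ras transformation, the GFP vector and the set of experiments differ together between both groups and cannot be told apart. For this reason no test was made, and a ratio stands with a 95% interval that covers counting error only. Ratios are log2 of Ras +/+ over immortalized +/+, less the median of all genes (0.13), so a value of 0 is the median gene. Of 33440 gene IDs in both tables, 16169 averaged at least 1 RPM over both groups and were used. A gene is called higher or lower here when it lies at least 2-fold past the median gene. If a group had 0 reads, the fold is a bound against 3 reads summed over the group.

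By that rule 2221 genes (13.7%) were higher and 2937 genes (18.2%) were lower in Ras +/+ than in immortalized +/+ cells. Large differences lay mostly on the lower side: 452 genes (2.80%) were at least 4-fold higher and 1447 (8.95%) at least 4-fold lower, and at 8-fold the counts were 193 (1.19%) and 942 (5.83%). There were 179 genes with no read in Ras +/+ cells and 9 with no read in immortalized +/+ cells. The Ras +/+ libraries with the USP28 vector had at most 3 reads for 174 of those 179 genes, while Ras -/- cells had more than 3 reads for 69 of them. The plot of levels shows the matrix genes below the band of most genes and the growth and mitosis genes along its upper edge.

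**Figure D1:**
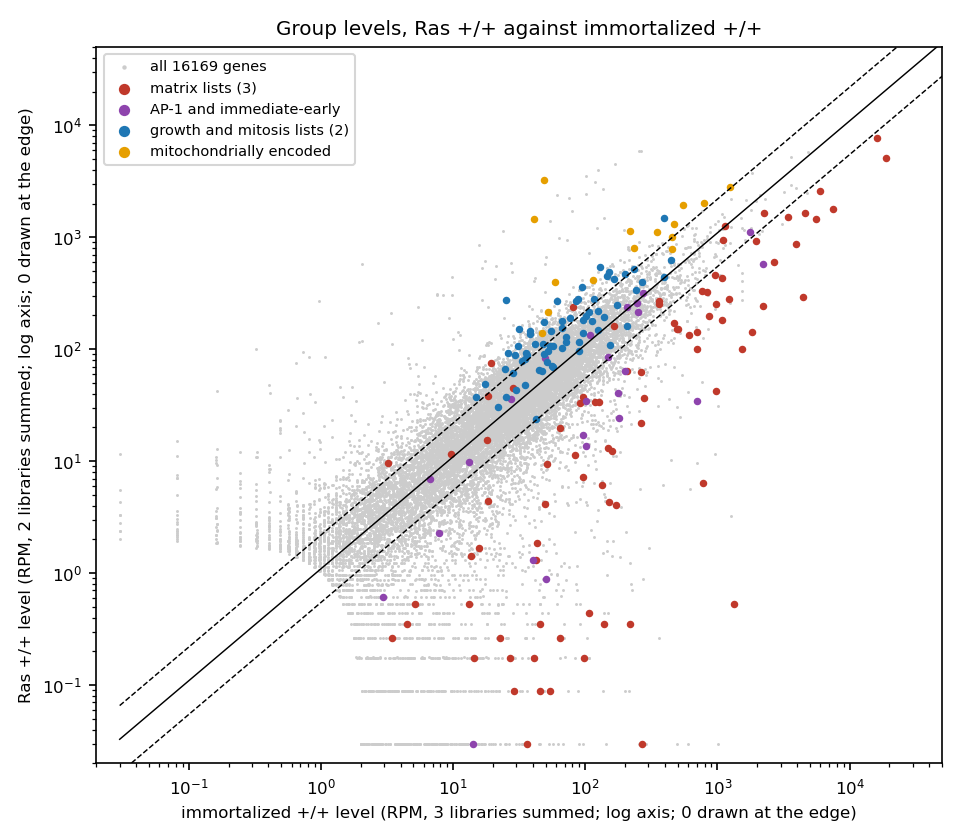
Level of each gene in Ras +/+ cells (vertical) against immortalized +/+ cells (horizontal), both in RPM on log axes, for 16169 genes; the solid line is the median gene, the dashed lines are 2-fold from it, and levels of 0 are drawn at 0.03. Points of the 3 matrix lists (red) lie mostly below the lower dashed line, and mitochondrially encoded genes (orange) mostly above the upper one.

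Several features of the libraries moved with the groups, and their part in the results was not tested. Depth summed over a group was 11.4 M reads (M, 1000000) in Ras +/+ and 12.3 M in immortalized +/+ cells, so 1 read is 0.0880 and 0.0813 RPM. In Ras +/+ libraries 17 loci of at least 1000 RPM lay 8-fold or more above immortalized +/+, among them Lars2, Cdk8, Malat1 and both mitochondrial ribosomal RNAs. They summed to 48308 RPM in Ras +/+, 5237 RPM in Ras +/+ USP28 and 1916 RPM in immortalized +/+ cells. X- and Y-linked genes differed too: Xist, which silences an X chromosome in female cells, had 336 RPM in Ras +/+ and 89.7 RPM in immortalized +/+ cells. The Y-linked Eif2s3y had no read in Ras +/+ and 18.6 RPM in immortalized +/+ cells, and Kdm5d had 0.0882 RPM (1 read) and 14.3 RPM. Ddx3y, also Y-linked, had 10.7 RPM in Ras +/+ and 38.3 RPM in immortalized +/+ cells. Of 6 sex-linked genes 2 were higher (Xist and its antisense Tsix, whose reads cannot be told apart) and 4 lower. In immortalized +/+ cells reads of Xist thus stood together with those of Eif2s3y, Kdm5d and Ddx3y. In Ras +/+ cells Xist stood with Ddx3y but with almost no reads of Eif2s3y and Kdm5d. Ddx3y also had 7.89 RPM in immortalized +/- cells, where Eif2s3y had no read. Of the fibroblast markers, Col1a1 stood at 5150 RPM in Ras +/+ and 18921 RPM in immortalized +/+ cells, and Vim at 2506 and 4750 RPM. Thy1 was almost without reads in Ras +/+ (0.0878 RPM, 1 read) against 199 RPM in immortalized +/+ cells, and Dcn had 0.354 against 45.6 RPM. Col1a2, Col3a1, Pdgfra and Pdgfrb were lower too, with log2 ratios of -2.18, -4.05, -2.60 and -2.82. So Ras +/+ cells carried the fibroblast transcripts Col1a1 and Vim at lower levels and almost none of Thy1 and Dcn. Dcn was not lost in the other genotypes, with 118 RPM in Ras +/- and 99.8 RPM in Ras -/- cells. In bulk RNA, fewer cells of a type and less RNA per cell cannot be told apart.

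The genes the constructs concern were as follows. Hras had 93.5 RPM in Ras +/+ and 96.9 RPM in immortalized +/+ cells, a log2 ratio of -0.18 (-0.30 to -0.06). The labels do not give the species of the HRas insert, and whether its reads fall on the mouse gene was not tested, so this level does not check the Ras label. Cdkn2a, the locus of p19ARF and p16INK4a that the hairpin targets in every group, had 12.9 RPM in Ras +/+ and 119 RPM in immortalized +/+ cells, a log2 ratio of -3.33 (-3.58 to -3.08). It was also lower in the other genotypes, with log2 ratios of -2.10 for +/- and -3.30 for -/-. Usp28 had 26.5 RPM in Ras +/+ and 16.5 RPM in immortalized +/+ cells (log2 ratio 0.55), and Fbxw7, which encodes Fbw7, had 27.1 and 17.9 RPM (0.47). Of the 8 genes listed for Usp28 and the SCF-Fbw7 ligase 1 was higher, where 13.7% of all genes were. It was Skp2, a substrate receptor that drives the destruction of p27, at 61.6 RPM in Ras +/+ and 25.4 RPM in immortalized +/+ cells (1.15, 0.95 to 1.35).

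Genes of Ras output lay above the median gene as a list in the +/+ pair. Of 23 measured genes of MAPK feedback and output, 7 were higher and 2 lower, with a median log2 ratio of 0.75. Over all genes 13.7% were higher and 18.2% lower. The +/- pair did not share this: 2 of 23 were higher and 5 lower (median -0.44), against 12.1% and 16.6% of all genes. In the -/- pair 4 of 24 were higher and 4 lower (median 0.28), against 9.07% and 10.8% of all genes. Etv4, an ETS factor induced by ERK, had 38.1 RPM in Ras +/+ and 9.66 RPM in immortalized +/+ cells (1.85, 1.55 to 2.15). The chromatin proteins Hmga1 and Hmga2, known from transformed and embryonic cells, had 779 and 532 RPM in Ras +/+ against 212 and 147 RPM in immortalized +/+ cells (1.75 and 1.72). Hmga1 did not go this way in the other genotypes, where its ratios were -0.47 for +/- and -0.69 for -/-. The feedback inhibitor Spry1 was nearly silent, with 0.177 RPM (2 reads) in Ras +/+ and 5.79 RPM in immortalized +/+ cells (-5.16, -8.24 to -3.26). Its ratio was -4.96 in the +/- pair, with 1.66 RPM in Ras +/- and 46.7 RPM in immortalized +/- cells, and -5.88 in the -/- pair.

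Immediate-early genes, which ERK signalling induces within minutes, were lower as a list. Among 24 AP-1 and immediate-early genes, 13 were lower and 0 higher, with a median of -1.73. Jun and Fosl2 stood near the median gene (-0.08 and 0.08). The AP-1 gene Fosl1, listed with MAPK output instead, was higher at 134 RPM in Ras +/+ and 58.4 RPM in immortalized +/+ cells (1.07, 0.94 to 1.20). Its ratios were 1.24 in the +/- pair and -0.07 in the -/- pair. Egr1, a zinc finger factor, had 34.8 RPM in Ras +/+ and 703 RPM in immortalized +/+ cells (-4.46, -4.61 to -4.32). Fos, a partner of Jun in AP-1, had 0.882 RPM in Ras +/+ and 50.8 RPM in immortalized +/+ cells (-5.98, -7.05 to -5.09). Egr2 had 1.31 against 40.2 RPM (-5.07), and Egr3 had no read in Ras +/+ against 14.2 RPM in immortalized +/+ cells, at least 58.9-fold lower. The size differed between genotypes: Fos stood at -1.80 in the +/- pair and -0.93 in the -/- pair, and Egr1 at -3.09 and -1.61. The list's count was 14 of 24 lower in the +/- pair and 10 of 23 in the -/- pair, where 16.6% and 10.8% of all genes were lower.

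Ras proteins and their regulators stood near the median gene as a list, while many receptor genes were lower. Of 25 genes for Ras proteins and regulators, 1 was higher and 7 were lower, with a median of -0.08. The lower ones included Rasl11a (1.60 RPM in Ras +/+ and 15.5 RPM in immortalized +/+ cells, -3.41), a Ras-like protein, and Rasgrp3 (1.57 and 8.64 RPM, -2.59), an exchange factor that loads Ras with GTP. Rasl11a was higher in the +/- pair (2.04) and stood at -0.75 in the -/- pair. Rasgrp3 was lower in the +/- pair (-3.11) but near the median gene in the -/- pair (0.06). Of 19 growth factors 3 were higher and 5 lower, with sums of 1572 RPM in Ras +/+ and 1217 RPM in immortalized +/+ cells. The higher ones were Nrg1 (40.9 and 5.65 RPM, 2.73), Kitl (148 and 52.8 RPM, 1.36) and Egf (2.04 and 0.816 RPM, 1.19). Tgfa, a ligand of the EGF receptor, had 0.441 RPM in Ras +/+ and 5.49 RPM in immortalized +/+ cells (-3.77), Hgf, the ligand of Met, had 0.440 and 8.95 RPM (-4.48), and Pdgfb had no read against 13.6 RPM (at least 56.4-fold lower). Tgfa and Pdgfb went the other way in the +/- pair, at 2.48 and 3.74. Receptors for such ligands were lower in 10 of 18 cases and higher in 0. Their summed level was nevertheless larger in Ras +/+ (4322 RPM) than in immortalized +/+ cells (3510 RPM). Egfr had 0.616 RPM in Ras +/+ and 48.5 RPM in immortalized +/+ cells (-6.43, -7.75 to -5.38), against ratios of -1.28 and -1.63 in the +/- and -/- pairs. Fgfr3 had 0.793 and 33.4 RPM (-5.53), against ratios of -1.42 and -0.01 in those pairs.

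Genes of cell growth and division were higher as groups. The list of ribosome biogenesis and Myc-driven growth had 21 of 40 members higher and 0 lower, with a median of 1.07. Tfrc, the transferrin receptor that brings iron into growing cells, had 274 RPM in Ras +/+ and 25.2 RPM in immortalized +/+ cells (3.31, 3.14 to 3.48). Dkc1, the pseudouridine synthase of ribosomal RNA and a part of telomerase, had 153 and 31.6 RPM (2.15). Nop58, a core protein of box C/D snoRNPs, had 269 and 60.7 RPM (2.02), and the nucleolar helicase Ddx21 had 545 and 129 RPM (1.95). These 4 genes were also above the median gene in the +/- pair (1.38 to 2.47) and the -/- pair (0.98 to 1.23). As a list the excess was smaller in the -/- pair, with 7 of 40 members higher and a median of 0.08, against 17 of 40 and 0.86 in the +/- pair, where 9.07% and 12.1% of all genes were higher. The structural proteins of the ribosome did not share it: of 75 genes 1 was higher and 2 lower, with a median of -0.09.

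Mitosis genes showed a like pattern, with 12 of 28 higher, 0 lower and a median of 0.87. Cenpe, a kinetochore motor, had 146 RPM in Ras +/+ and 38.5 RPM in immortalized +/+ cells (1.80, 1.65 to 1.95), Bub1, a spindle checkpoint kinase, 92.6 and 26.0 RPM (1.71), and Ect2, an exchange factor for cytokinesis, 136 and 38.0 RPM (1.71). Of 37 genes of E2F output and DNA replication, 9 were higher and 0 lower, with a median of 0.56. Orc1, a subunit of the origin recognition complex, had 44.6 and 10.6 RPM (1.94), and Ccne2, a cyclin E, 54.0 and 18.1 RPM (1.44). In the +/- pair 20 of 28 and 23 of 37 members of these lists were higher, against 12.1% of all genes. In the -/- pair 1 of 28 and 2 of 37 were, against 9.07% of all genes, with medians of 0.59 and 0.34. Of 26 CDK inhibitors and p53 targets, 5 were higher and 4 lower, against 13.7% and 18.2% of all genes. Pmaip1, which encodes the pro-apoptotic Noxa, had 57.2 RPM in Ras +/+ and 5.42 RPM in immortalized +/+ cells (3.27), but was lower in the +/- and -/- pairs (-4.30 and -1.82). Cdkn1c, the CDK inhibitor p57, had no read in any of the 4 Ras groups, against 6.36 RPM in immortalized +/+ cells (at least 26.3-fold lower).

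Myc and its relatives bind the E-box CACGTG, and among the growth genes with a promoter window in RefSeq 7 of 35 (20%) hold these letters within 250 bases before the transcription start, against 861 of 10339 genes at the level minimum (8.33%). The match is a description of the letters and not of binding. Windows with at least 10 CG dinucleotides made up 85.7% of this list and 73.4% of all genes, and the E-box itself holds a CG. Myc had 161 RPM in Ras +/+ and 92.0 RPM in immortalized +/+ cells (0.68) and was not called. The windows of the pair of E-box holders with the highest ratios are shown as examples and do not stand for the other holders. Set, a histone chaperone, had a ratio of 1.81 and Hspd1, the mitochondrial chaperonin, 1.52. Capitals mark the E-box, and the sequences are RefSeq's for GRCm38.p6, chr2:30061746-30061995 on the plus strand for Set and chr1:55088244-55088493 on the minus strand for Hspd1.
Set: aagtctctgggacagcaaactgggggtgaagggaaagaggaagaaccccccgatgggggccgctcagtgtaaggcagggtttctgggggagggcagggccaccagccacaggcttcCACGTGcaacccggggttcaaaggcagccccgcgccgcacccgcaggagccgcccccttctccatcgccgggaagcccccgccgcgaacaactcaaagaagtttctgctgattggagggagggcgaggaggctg
Hspd1: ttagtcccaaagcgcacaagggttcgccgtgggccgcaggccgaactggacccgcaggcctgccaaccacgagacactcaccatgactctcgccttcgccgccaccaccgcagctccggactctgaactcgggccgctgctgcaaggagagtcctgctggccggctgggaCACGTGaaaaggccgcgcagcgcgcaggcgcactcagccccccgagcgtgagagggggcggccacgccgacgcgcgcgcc
The motif starts 134 bases before the start of Set and 80 bases before that of Hspd1. The other holders were Nop2, Ran, Eif4a1, Phb and Ldha, with ratios of 1.18, 0.43, 0.36, 0.22 and 0.03. Of these only Nop2 was called higher, and the others lay below the list's median of 1.07.

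Most matrix genes were lower. Of 23 collagen genes 17 were lower and 1 higher, with a median of -2.25, and their summed level was 12875 RPM in Ras +/+ and 44996 RPM in immortalized +/+ cells. Col6a3, a chain of the beaded-filament collagen VI, had 42.0 RPM in Ras +/+ and 976 RPM in immortalized +/+ cells (-4.67, -4.80 to -4.54). Col5a3, a minor fibrillar chain, had 0.354 against 139 RPM (-8.75, -10.63 to -7.39), and Col15a1, a basement membrane zone collagen, 0.175 (2 reads) against 14.3 RPM (-6.48, -9.53 to -4.60). In the other genotypes Col6a3 was lower too (-9.73 for +/- and -1.26 for -/-), while Col27a1, at -7.99 in the +/+ pair, was higher in the +/- pair at 2.62.

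Proteoglycans, elastic fibre and matricellular proteins were lower in 33 of 37 cases and higher in 2, with a median of -2.44. Postn, a matricellular protein of collagen assembly, had 0.529 RPM (6 reads) in Ras +/+ and 1345 RPM in immortalized +/+ cells (-11.44, -12.89 to -10.32). Eln, which encodes elastin, had 0.351 and 217 RPM (-9.40), Mfap2, a microfibril protein, 0.0878 (1 read) and 54.0 RPM (-9.39, -14.70 to -6.91), and Prelp, a leucine-rich repeat proteoglycan, 0.176 and 98.5 RPM (-9.26). Lum, a proteoglycan that spaces collagen fibrils, had no read in Ras +/+ against 36.2 RPM in immortalized +/+ cells (at least 150-fold lower). Not all of these held in every genotype: Postn had 300 RPM in Ras -/- and 260 RPM in immortalized -/- cells (0.12), and 0 in Ras +/- against 138 RPM in immortalized +/- cells.

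Matrix proteases and their inhibitors were lower in 23 of 26 cases and higher in 0, with a median of -2.82. Serpine2, an inhibitor of thrombin and plasminogen activators, had no read in Ras +/+ and 267 RPM in immortalized +/+ cells, at least 1106-fold lower. It had at most 0.502 RPM in the other Ras groups and at least 109 RPM in the other immortalized groups. Ctsk, the collagen-cutting cathepsin K, had 0.265 RPM (3 reads) against 64.8 RPM (-8.06, -10.35 to -6.52), Adamts9, a protease of versican and aggrecan, 0.175 (2 reads) against 27.0 RPM (-7.40), and Mmp23 0.264 (3 reads) against 22.6 RPM (-6.55). Adamts9 stood near the median gene in the +/- pair (-0.22) and above it in the -/- pair (1.23).

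Contractile genes were lower in 9 of 21 cases and higher in 0, with a median of -0.64, where 18.2% of all genes were lower. Cnn1, calponin of smooth muscle, had 1.94 RPM in Ras +/+ and 146 RPM in immortalized +/+ cells (-6.36, -7.04 to -5.76), Lmod1, an actin nucleator, 2.45 and 110 RPM (-5.62), and Myl9, a regulatory myosin light chain, 126 and 782 RPM (-2.76). The other genotypes had more members lower, 19 of 22 in the +/- pair and 13 of 22 in the -/- pair, against 16.6% and 10.8% of all genes. Integrins and laminins were lower in 11 of 29 cases and higher in 5. Itga11, a receptor chain for collagen, had 1.58 RPM in Ras +/+ and 146 RPM in immortalized +/+ cells (-6.66), and was -7.68 and -6.52 in the +/- and -/- pairs. Lama4, a laminin chain, had 0.966 and 61.0 RPM (-6.11).

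**Figure D2:**
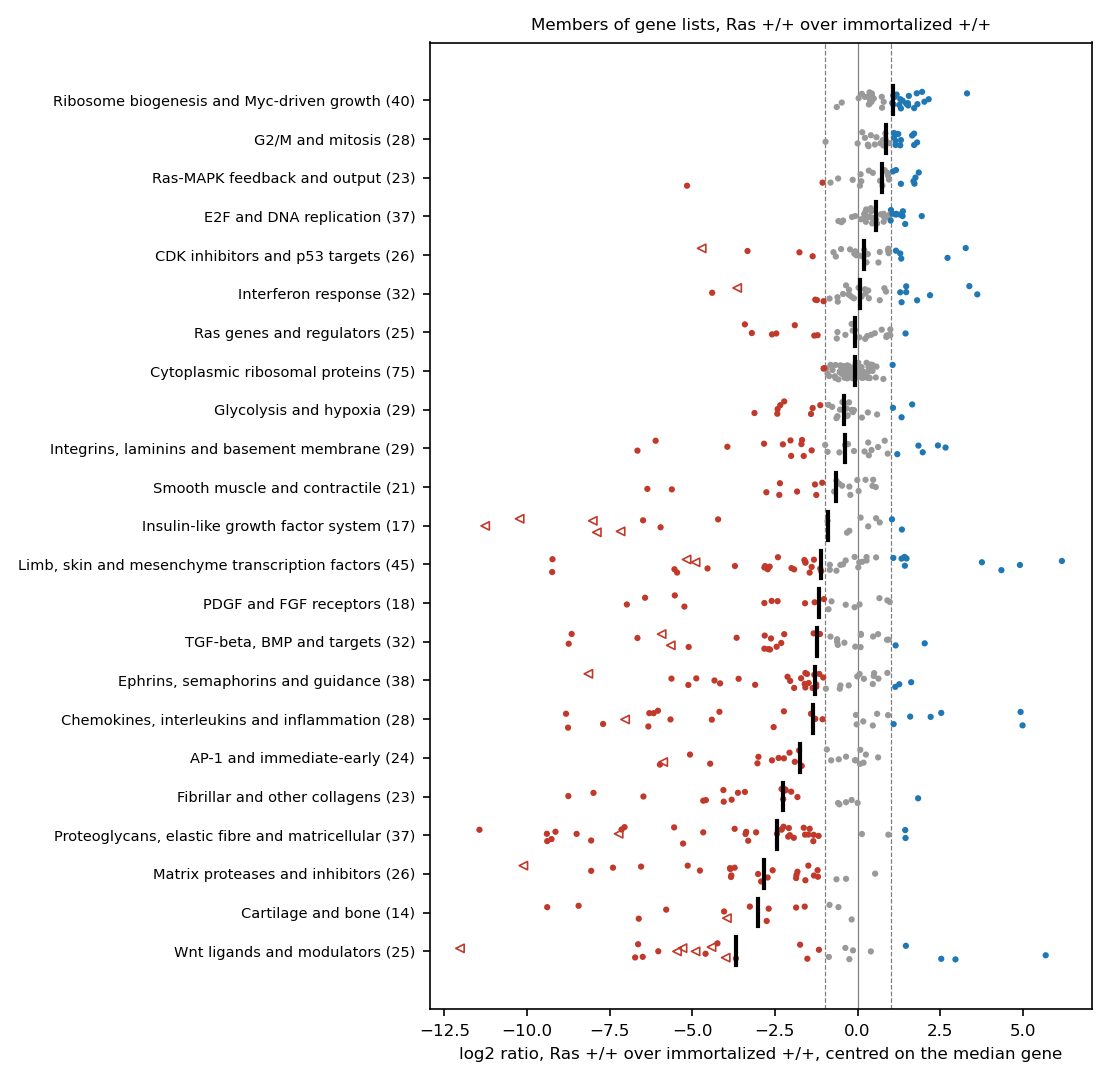
Centred log2 ratio of Ras +/+ over immortalized +/+ for each member (point) of 23 gene lists, with the number of members at the level minimum in brackets; blue is at least 2-fold higher, red at least 2-fold lower, open triangles have no read in Ras +/+ and stand at their bound, and black bars are medians. The medians run from 1.07 for ribosome biogenesis to -3.68 for Wnt ligands and modulators.

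Secreted regulators of growth were among the genes with the largest differences. In the insulin-like growth factor system 8 of 17 members were lower and 2 higher, and 5 had no read in Ras +/+ cells. Igfbp2, a carrier protein that binds the growth factors, had 595 RPM in immortalized +/+ cells (at least 2463-fold lower in Ras +/+), and the carriers Igfbp5 and Igfbp3 had 57.1 and 34.6 RPM there (at least 237-fold and 144-fold lower). Igf2, the growth factor itself, had 62.3 RPM in immortalized +/+ cells (at least 258-fold lower in Ras +/+), and the noncoding RNA H19 next to it had 289 RPM (at least 1196-fold lower). Igfbp3 and Igfbp5 had no read in any Ras group. Igfbp2 kept 81.3 RPM in Ras +/- against 322 RPM in immortalized +/- cells (-2.13).

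Wnt ligands and modulators were lower in 16 of 25 cases and higher in 4, with a median of -3.68. Sfrp2, a secreted Wnt antagonist, had no read in Ras +/+ and 1008 RPM in immortalized +/+ cells, at least 4177-fold lower, but 109 RPM in Ras -/- and 83.6 RPM in immortalized -/- cells (0.29). Dkk3, a secreted protein of the Dickkopf family, had 1.51 and 137 RPM (-6.64), with ratios of -6.65 and -6.68 in the +/- and -/- pairs. Rspo2 and Rspo3, secreted agonists of Wnt signalling, had 1.95 and 0.703 RPM in Ras +/+ against 161 and 68.1 RPM in immortalized +/+ cells (-6.50 and -6.73). Rspo2 was higher in the -/- pair, with 494 RPM in Ras -/- and 135 RPM in immortalized -/- cells (1.79). The ligands Wnt2, Wnt11 and Wnt16 had no read in Ras +/+ cells, against 3.85, 5.17 and 10.6 RPM in immortalized +/+ cells.

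Of 32 genes of TGF-beta and BMP signalling, 17 were lower and 2 higher, with a median of -1.24. Ltbp2, which binds microfibrils and belongs to the latent TGF-beta binding proteins, had 3.22 RPM in Ras +/+ and 1258 RPM in immortalized +/+ cells (-8.74, -9.23 to -8.26). Its ratio was -7.32 in the +/- pair and -0.67 in the -/- pair. Inhbb, an activin subunit, had 0.0882 RPM (1 read) and 32.3 RPM (-8.65, -13.96 to -6.17). Bmp2 had no read in Ras +/+ against 14.7 RPM in immortalized +/+ cells (at least 60.9-fold lower), and 170 RPM in Ras -/- against 1.40 RPM in immortalized -/- cells (6.84). Ephrins, semaphorins and other guidance genes were lower in 23 of 38 cases and higher in 3. Epha3, an ephrin receptor, had 1.31 RPM in Ras +/+ and 41.8 RPM in immortalized +/+ cells (-5.12), and Ephb6 had no read against 68.3 RPM (at least 283-fold lower). Of 11 Notch genes 5 were lower and 0 higher, among them the receptor Notch3 (0.708 and 23.4 RPM, -5.18) and the target Hes1 (7.94 and 35.8 RPM, -2.30).

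Serpine2, Igfbp3, Meg3 and Ctsk had at most 3 reads in Ras +/+ cells, and their windows before the start are shown because they differ widely in CG content although each gene was at least 8-fold lower in all 3 genotype pairs. Meg3, a noncoding RNA of the imprinted Dlk1 region, had no read in any Ras group and 491 RPM in immortalized +/+ cells (at least 2034-fold lower). The sequences are the 250 bases before the RefSeq start in GRCm38.p6, 5' to 3' along the gene, with CG dinucleotides in capitals. They lie at chr1:79858666-79858915 on the minus strand for Serpine2, chr11:7213924-7214173 on the minus strand for Igfbp3, chr12:109540746-109540995 on the plus strand for Meg3 and chr3:95498960-95499209 on the plus strand for Ctsk.
Serpine2: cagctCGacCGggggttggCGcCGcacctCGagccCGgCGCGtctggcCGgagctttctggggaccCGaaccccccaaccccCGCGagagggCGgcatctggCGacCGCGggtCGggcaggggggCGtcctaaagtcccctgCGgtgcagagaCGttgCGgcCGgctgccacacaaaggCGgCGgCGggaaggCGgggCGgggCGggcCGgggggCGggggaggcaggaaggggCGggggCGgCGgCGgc
Igfbp3: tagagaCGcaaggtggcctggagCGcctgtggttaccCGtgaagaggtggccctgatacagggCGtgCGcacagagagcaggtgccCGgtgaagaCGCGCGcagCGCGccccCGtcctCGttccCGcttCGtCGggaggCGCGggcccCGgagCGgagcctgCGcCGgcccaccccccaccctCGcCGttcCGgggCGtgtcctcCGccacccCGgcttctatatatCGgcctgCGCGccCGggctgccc
Meg3: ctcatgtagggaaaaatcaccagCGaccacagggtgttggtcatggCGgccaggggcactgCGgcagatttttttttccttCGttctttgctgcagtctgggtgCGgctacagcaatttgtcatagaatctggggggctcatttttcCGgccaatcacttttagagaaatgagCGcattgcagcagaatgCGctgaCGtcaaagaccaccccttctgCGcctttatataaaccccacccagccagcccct
Ctsk: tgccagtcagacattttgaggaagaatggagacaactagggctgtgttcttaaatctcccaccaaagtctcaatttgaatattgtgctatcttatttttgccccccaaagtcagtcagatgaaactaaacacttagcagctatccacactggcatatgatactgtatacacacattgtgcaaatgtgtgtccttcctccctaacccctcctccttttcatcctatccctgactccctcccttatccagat
The windows hold 34 CG dinucleotides for Serpine2, 32 for Igfbp3, 10 for Meg3 and 0 for Ctsk. None of these 4 holds AP-1, ETS or E-box letters on either strand, and Meg3 holds the TATA letters TATAAA or their complement.

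Across promoters, the windows of genes at least 4-fold lower held ETS letters (CCGGAAG, either strand) in 42 of 1014 cases, those at least 4-fold higher in 14 of 236, and all genes at the level minimum in 1399 of 10339. The AP-1 letters TGANTCA stood in 52 of 1014 windows of the lower genes (5.13%), 19 of 236 of the higher genes (8.05%) and 434 of all (4.2%). Windows with at least 10 CG dinucleotides, a count set after the values were seen, made up 60.5% of the lower genes, 45.8% of the higher genes and 73.4% of all. Among genes at least 8-fold lower in all 3 genotype pairs they made up 99 of 156 (63.5%). Both groups of genes with large ratios thus had fewer CG-rich windows than all genes.

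Transcription factors of limb, skin and mesenchyme were lower in 23 of 45 cases and higher in 9, with a median of -1.10. In the +/- pair 25 of 39 were lower and 4 higher (median -1.79). In the -/- pair 12 of 42 were lower and 8 higher (median 0.10). Pitx1 and Tbx4, which specify the hindlimb, each had 1 read in Ras +/+ (0.0882 RPM) against 48.9 and 48.3 RPM in immortalized +/+ cells (-9.24 and -9.23, with upper limits of -6.76 and -6.75). Pitx1 had no read in any other Ras group, while Tbx4 had 28.5 RPM in Ras -/- and 55.5 RPM in immortalized -/- cells (-1.05). Hand2, a limb and heart factor, had no read in any Ras group against 8.71 RPM in immortalized +/+ cells (at least 36.1-fold lower). In the other direction Alx1, a factor of craniofacial mesenchyme, had 12.9 RPM in Ras +/+ and 0.163 RPM (2 reads) in immortalized +/+ cells (6.18, 4.31 to 9.24). It had 10.4 RPM in Ras +/+ USP28 and no read in Ras +/- or Ras -/- cells. Of 21 Hox genes at the level minimum, 6 were lower and 1 higher. Hoxc10 had no read in Ras +/+ against 4.13 RPM in immortalized +/+ cells (at least 17.1-fold lower).

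Markers of other cell types differed as well. Sox2, a factor of neural and pluripotent stem cells, had 19.6 RPM in Ras +/+ and 0.486 RPM in immortalized +/+ cells (5.20, 4.06 to 6.66). It was also present in Ras +/+ USP28, but had no read in Ras +/- and Ras -/- cells. Of 12 neural and glial markers at the level minimum 4 were higher and 4 lower. Msln, the mesothelial surface protein mesothelin, had 425 RPM in Ras +/+ and 20.9 RPM in immortalized +/+ cells (4.21, 4.03 to 4.40), but the mesothelial Upk3b had 0.264 and 1.95 RPM. In the +/- genotype Msln had 209 RPM in Ras and 476 RPM in immortalized cells. Of the 7 epithelial and mesothelial markers at the level minimum 2 were higher and 2 lower. Cartilage and bone markers were lower in 11 of 14 cases and higher in 0, with sums of 28.3 RPM in Ras +/+ and 456 RPM in immortalized +/+ cells. Col2a1, the main collagen of cartilage, had 0.705 and 224 RPM (-8.44). Of 11 such markers in the +/- pair 5 were lower and 0 higher (median -0.88). In the -/- pair 4 of 11 were lower and 4 higher (median -0.18). Adipocyte markers were lower in 6 of 8 cases, with Pparg, the master regulator of fat cells, at 0.265 and 18.5 RPM (-6.25). Plin2, a coat protein of lipid droplets, was the higher one, at 235 and 71.7 RPM (1.58), and with it the markers summed to 288 RPM in Ras +/+ and 225 RPM in immortalized +/+ cells. Only 4 of 13 leukocyte, 3 of 10 endothelial and 2 of 15 skeletal muscle markers reached the level minimum, with sums of 20.6, 6.95 and 7.79 RPM in Ras +/+ and 21.3, 36.8 and 5.93 RPM in immortalized +/+ cells. In Ras +/+ cells 3 of the leukocyte, 1 of the endothelial and 4 of the skeletal muscle markers had no read.

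Inflammatory genes were mixed. Chemokines, interleukins and related genes were lower in 16 of 28 cases and higher in 6 in the +/+ pair, with a median of -1.34. The other genotypes did not share this. In the +/- pair 11 of 31 were lower and 10 higher (median -0.19), against 16.6% and 12.1% of all genes. In the -/- pair 8 of 29 were lower and 14 higher (median 0.89), against 10.8% and 9.07% of all genes. Cxcl5, a neutrophil chemokine, had 0.176 RPM (2 reads) in Ras +/+ and 33.4 RPM in immortalized +/+ cells (-7.70), and Ptgis, prostacyclin synthase, 0.177 (2 reads) and 69.8 RPM (-8.76). Cxcl5 was higher in the -/- pair (3.51). Ptgis had 528 RPM in Ras +/- and 254 RPM in immortalized +/- cells (0.91), and a ratio of -4.55 in the -/- pair. C3, the central complement component, was higher, with 46.4 RPM in Ras +/+ and 1.39 RPM in immortalized +/+ cells (4.93, 4.25 to 5.73). Of 32 interferon response genes 8 were higher and 5 lower, with a median of 0.08. Oas1a and Oasl1, of the antiviral 2-5A synthetase family, had 2.18 and 1.84 RPM in Ras +/+ and 0.162 RPM (2 reads) each in immortalized +/+ cells (3.62 and 3.38, with lower limits of 1.63 and 1.35). The same list had 33 of 37 members higher in the -/- pair, with a median of 4.50, and 3 of 23 higher in the +/- pair.

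Metabolic lists stood near the median gene. Of 51 nuclear genes of the respiratory chain 0 were higher and 2 lower (median -0.34), of 29 glycolysis and hypoxia genes 3 and 8 (-0.40), of 29 sterol and fatty acid genes 0 and 5 (-0.48), and of 29 stress response genes 0 and 3 (-0.08). Srebf1, a master regulator of lipid synthesis, had 50.7 RPM in Ras +/+ and 123 RPM in immortalized +/+ cells (-1.41, -1.55 to -1.26). Psat1, a serine synthesis enzyme, had 630 and 295 RPM (0.97), just under the 2-fold limit. Of 19 transporters 2 were higher and 7 lower. Slc7a2, a carrier of arginine, had 0.266 RPM (3 reads) in Ras +/+ and 35.6 RPM in immortalized +/+ cells (-7.20, -9.49 to -5.65), and was higher in the +/- pair (2.98).

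Transcripts of the mitochondrial genome and RNAs without a stable poly(A) tail were higher in Ras +/+ cells, in libraries made from poly(A)-selected RNA. Of 15 mitochondrially encoded genes 13 were higher and 0 lower, with a summed level of 18736 RPM in Ras +/+ and 5121 RPM in immortalized +/+ cells. The mitochondrial ribosomal RNA mt-Rnr2 had 3250 and 49.0 RPM (5.92). Rn7sk, Rpph1 and Rmrp, the RNAs of the P-TEFb inhibitor complex, RNase P and RNase MRP, had 27.2, 17.8 and 12.1 RPM in Ras +/+ against 0.733, 0.491 and 0.245 RPM in immortalized +/+ cells (5.08, 5.05 and 5.50). They belong to a list of 7 structural and nuclear noncoding RNAs of which 4 were higher and 1 lower. Of 35 replication-dependent histone genes 24 were higher and 2 lower, though these near-identical copies share reads and their sums were 154 RPM in Ras +/+ and 137 RPM in immortalized +/+ cells. In the +/- pair 0 of 24 histone genes were higher and 12 lower, with a median of -1.03, and in the -/- pair 14 of 20 were higher and 0 lower. Of 50 snoRNAs 31 were higher and 2 lower. In the Ras +/+ USP28 libraries Rn7sk, Rpph1 and Rmrp were lower than in Ras +/+, at 3.73, 0.373 and 0.373 RPM, though Rn7sk stayed above its immortalized +/+ level. There mt-Rnr2 had 819 RPM, also between the levels of Ras +/+ and immortalized +/+ cells. The mitochondrial mt-Nd2 kept its level, with 1177 RPM in Ras +/+ USP28, 1135 RPM in Ras +/+ and 218 RPM in immortalized +/+ cells. Of the histone genes, 3 were higher and 10 lower in the Ras +/+ USP28 libraries than in immortalized +/+ cells. The lists of growth, mitosis, matrix and immediate-early genes had nearly the same counts with those libraries: 20 of the growth genes and 12 of the mitosis genes were higher, and 17 collagens, 33 proteoglycan and matricellular genes, 23 proteases and 15 immediate-early genes were lower. Both sets of ratios share the immortalized +/+ libraries. Over 5 equal classes of transcript length the median ratio ran from -0.11 to 0.16, the share of higher genes from 11.8% to 16.6% and the share of lower genes from 13.4% in the shortest class to 20.8% in the next. The part of length in the results was not tested.

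Ranked by the end of the counting interval nearest 0 over all genes, the 15 largest differences in each direction are shown by group in the heat map. The highest was Tigit, an inhibitory receptor of T cells, with 42.3 RPM in Ras +/+ and 0.163 RPM in immortalized +/+ cells (7.89, 6.03 to 10.94), and it had 56.5 RPM in Ras +/+ USP28 but 0.831 and 0.287 RPM in Ras +/- and Ras -/- cells. The proliferin genes Prl2c2, Prl2c3 and Prl2c5, growth-related hormones of the prolactin family, had 209, 170 and 85.4 RPM in Ras +/+ against 3.40, 2.70 and 1.08 RPM in immortalized +/+ cells. These paralogs are near-identical, so their reads cannot be assigned to 1 gene with certainty. Xlr, an X-linked lymphocyte-regulated gene, had 11.7 RPM in Ras +/+ and no read in any immortalized group (at least 44.0-fold higher). Impg1, Htr1d, Il1rapl1, Col6a6, Dnah7b, Zfp791 and Lars2 were also among the 15, and all of these were far lower in Ras +/+ USP28. Lars2, for example, had 3519 RPM in Ras +/+, 217 RPM in Ras +/+ USP28 and 101 RPM in immortalized +/+ cells.

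On the lower side, genes not yet described were Thbd, Cspg4, Gas6, Islr and Cacna1h. Thbd, thrombomodulin, which turns thrombin into an anticoagulant, had no read in any Ras group and 254 RPM in immortalized +/+ cells (at least 1053-fold lower). Cspg4, the NG2 proteoglycan of pericytes and progenitors, had 0.266 RPM (3 reads) in Ras +/+ and 359 RPM in immortalized +/+ cells (-10.53, -12.82 to -8.99). Gas6, the ligand of the TAM receptors, had 0.0882 RPM (1 read) in Ras +/+ and 216 RPM in immortalized +/+ cells (-11.39, -16.70 to -8.91). Ras -/- cells had far more of both, with 160 RPM of Cspg4 and 42.2 RPM of Gas6. Islr had no read in Ras +/+ against 95.9 RPM in immortalized +/+ cells (at least 397-fold lower). In the heat map some of the lower genes, such as Meg3 and Thbd, are at 0 in every Ras group, while others, such as Igfbp2 in Ras +/- and Cspg4 in Ras -/-, are present in 1 of them.

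**Figure D3:**
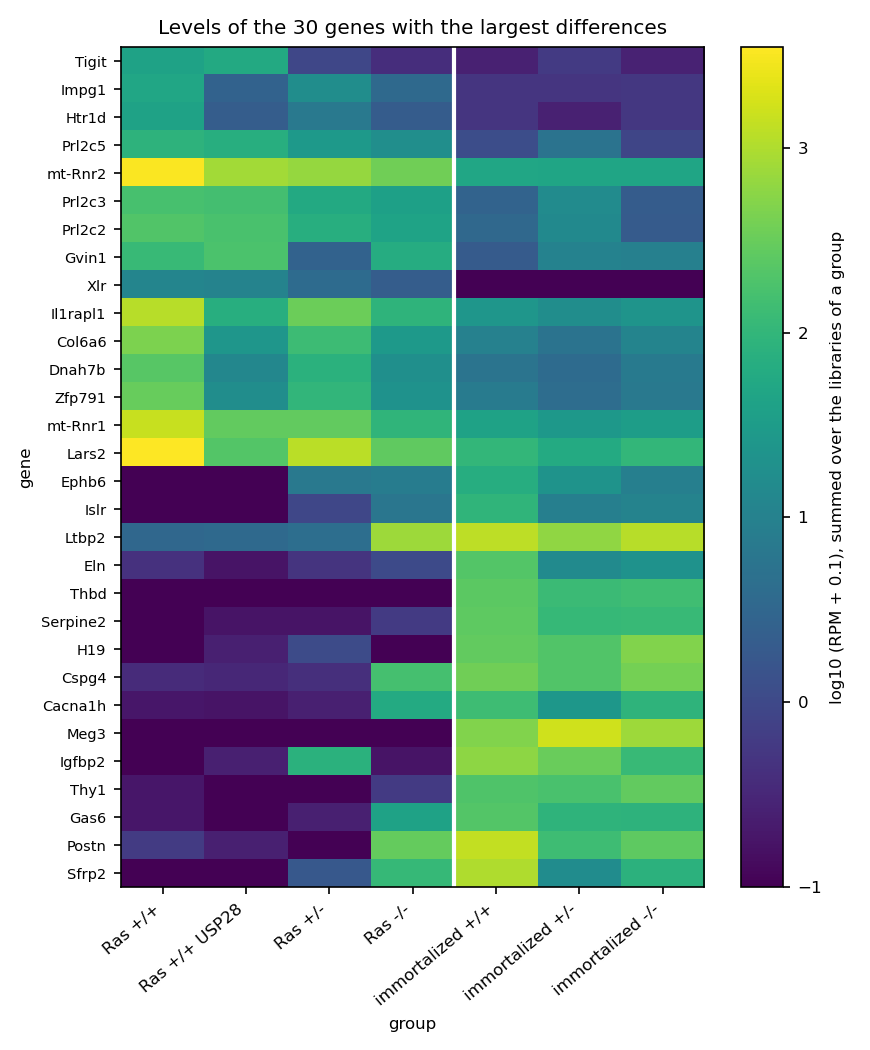
Levels of the 15 genes with the largest higher and the 15 with the largest lower ratio in the 7 groups of the study, as log10 of RPM plus 0.1; the white line parts the 4 Ras groups (left) from the 3 immortalized groups. Meg3 and Thbd are at 0 in all Ras groups, while Ltbp2, Cspg4, Gas6 and Postn are near 0 in Ras +/+ and present in Ras -/- cells.

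The same ratio was formed for the +/- and -/- genotypes, whose libraries the +/+ ratio does not use, though Ras and the set of experiments differ together there too. In the +/- pair 1996 of 16428 genes (12.1%) were higher and 2735 (16.6%) lower, and in the -/- pair 1468 of 16187 (9.07%) and 1743 (10.8%). The median absolute ratio was 0.65 for +/+, 0.58 for +/- and 0.46 for -/-. Of the genes higher in the +/+ pair and measured in the other, 861 of 2075 (41.5%) were also higher in the +/- pair and 556 of 2060 (27.0%) in the -/- pair. These are 43.1% and 37.9% of the other pairs' higher genes. Among genes lower in the +/+ pair, 1413 of 2753 (51.3%) were also lower in the +/- pair and 1105 of 2811 (39.3%) in the -/- pair, which is 51.7% and 63.4% of those lists. Opposite calls were 3.20% to 6.23%. Across genes, the +/+ ratio correlated with the +/- ratio at Pearson r 0.60 (Spearman 0.57, 15688 genes) and with the -/- ratio at 0.57 (0.53, 15752 genes), where genes are not independent replicates.

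Measured in all 3 pairs were 15471 genes, of which 316 were higher and 744 lower in each pair, and 11 and 223 at the 8-fold limit. The genes whose smallest ratio over the pairs was largest are plotted by pair. Zfp345, a zinc finger gene, had 7.13, 7.49 and 6.88 RPM in Ras +/+, +/- and -/- cells against 0.0815, 0.242 and 0.0880 RPM in the immortalized groups. C3 had ratios of 4.93, 3.42 and 7.62 in the +/+, +/- and -/- pairs, and Aim2, a cytosolic DNA sensor, had 3.33, 4.16 and 8.46 RPM in the Ras groups against 0, 0.406 and 0.351 RPM. Blnk, an adaptor of B cell receptor signalling, had 12.5, 4.84 and 2.72 RPM in the Ras groups against 0.572, 0.0807 and 0.352 RPM. On the lower side Gpx7, a peroxidase of the endoplasmic reticulum, had 1 read in each of the 3 Ras groups against 22.1, 41.0 and 25.0 RPM in immortalized +/+, +/- and -/- cells. Cthrc1, a secreted protein of collagen repair, had at most 0.151 RPM in the Ras groups and 27.8 to 117 RPM in the immortalized groups, and Ccdc8 at most 0.215 RPM against 19.9 to 29.6 RPM. For each of these lower genes every Ras level lay below every immortalized level, which the ranking over the pairs largely fixes in advance.

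**Figure D4:**
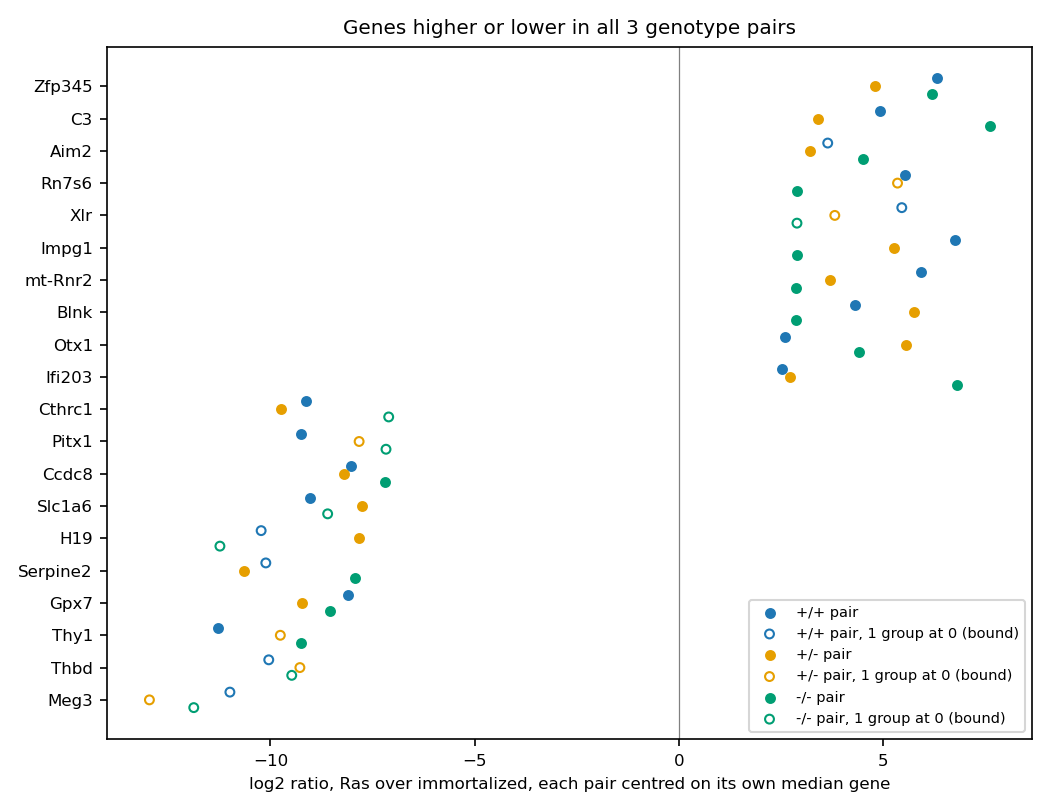
Log2 ratio of Ras over immortalized cells in the +/+, +/- and -/- pairs, each centred on its own median gene, for the 10 genes with the largest smallest ratio in either direction; open circles are bounds where 1 group had no read. Meg3, Thbd, Thy1, Gpx7 and Serpine2 lie at the lower end in all 3 pairs.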

How the data were processed

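RNA was poly(A)-selected, sequenced on a Genome Analyzer IIx from libraries of 2 NEBNext kits, per the labels' protocols, which do not say which kit made which library. Per the submitters' processing notes, the authors used CASAVA, FastQC, Bowtie 0.12.8, the mouse build mm9 and edgeR. The authors deposited 1 table for the Ras set (8 libraries) and 1 for the immortalized set (9), each normalized apart. Per the file headers they hold a log2 concentration and for each comparison a p-value and a log2 ratio, with +/+ on top. No columns of single libraries were given, and 24 and 35 repeated lines were dropped.

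The level of a group was computed as 2 to the power of the log2 concentration plus 0.5 of the log2 ratio, times 1000000, from the comparison of +/+ with -/- in each table. For the other genotypes the sign of the ratio was turned. Depth was found from the steps of 1 read between low values: below 20 reads, 94.7% of values in Ras +/+ and 95.5% in immortalized +/+ came within 0.1 of whole reads. Intervals are 95% exact binomial (Clopper-Pearson) intervals of the 2 read sums and cover counting error only. The deposited p-values were used once, to estimate a dispersion per comparison. A single dispersion for all genes was assumed and not checked, and its value is a median over genes with more than 300 reads in both groups. Genes with a high or an extremely low deposited p-value were left out of that median, and the effect of this choice was not tested. The coefficient of variation between libraries was 14.4% in the Ras set and 21.1% in the immortalized set for +/+ against -/-. For +/+ against +/- it was 14.2% and 32.3%. The intervals leave this variation out.

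Ratios of genes averaging at least 1 RPM were centred on their median. The design was fixed as a description with no test. The members and the 41 gene lists were chosen with earlier results of these data known. Named genes are up to 4 per list with the largest absolute ratio, and list members at 0 in a group; the 15 higher and 15 lower genes by the interval's end nearest 0; the 10 higher and 10 lower by the smallest ratio over the 3 genotype pairs; and Hras, Usp28, Fbxw7 and Cdkn2a. Some further genes, among them Nrg1, Kitl, Egf, Jun, Fosl1, Myc and Plin2, were named outside this rule. Genes named Gm or Rik were counted and not named. Symbols and lengths come from GENCODE and RefSeq tables of a later build, which gave 97.6% of shared IDs a symbol, and no gene coordinate is printed except promoter windows of RefSeq. Motifs were searched on both strands, with N for any base. Python 3.11.15, numpy 2.4.6, pandas 2.3.3 and scipy 1.17.1 were used, and the steps were tested on simulated data.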

Additional observations from a re-analysis of the deposited data

How the results depend on the processing

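The counts of genes higher and lower (2221 and 2937) stayed within 1.5 times under every alternative except the fold limit. At 4-fold they were 452 and 1447. Without centring the median gene moved by 0.13 on the log2 scale and 2760 genes were higher and 2628 lower. A centre on genes of at least 20 RPM gave 1959 and 3171, a level minimum of 0.5 RPM 2545 and 3300, and one of 5 RPM 1569 and 1990. A trimmed mean gave 2193 and 2966, levels taken from the comparison with +/- gave 2219 and 2934, and those from the comparison with USP28 2219 and 2939. A further pair of alternatives was added after seeing the data: protein-coding genes alone gave 1739 and 2480, and the Ras +/+ USP28 libraries in place of Ras +/+ gave 2030 and 2913. With the USP28 libraries the median of the histone list turned to -0.63, against 1.55, and 43 of 197 named genes left their counting interval; the cause was not tested. No named gene changed sign from a called ratio under any alternative.

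No paired analysis was possible because the tables hold no values for single libraries. For the same reason leaving out each library in turn was not run, and a library that decides a ratio could not be found. The groups have 2 and 3 libraries, both tables were normalized apart, and a level of 3 reads (0.264 RPM in Ras +/+ and 0.244 RPM in immortalized +/+) is the floor under which a difference was not detectable.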

Other observations

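A list of 21 genes under genomic imprinting, which are expressed from 1 parental copy, was written after their values were seen, so its count describes these genes and supports nothing. Of its 17 members at the level minimum 14 were lower and 0 higher, against 18.2% lower and 13.7% higher over all genes, and in the +/- and -/- pairs 17 of 18 and 11 of 17 were lower. Meg3, Ndn and Cdkn1c had no read in any Ras group. Ndn, the neuronal growth suppressor necdin, had 33.1, 55.7 and 52.3 RPM in immortalized +/+, +/- and -/- cells. Dlk1, a Notch-like membrane protein next to Meg3, had no read in Ras +/+ and 29.9 RPM in immortalized +/+ cells, and at most 0.0757 RPM in the other Ras groups. Mest, a hydrolase-like protein, had 0.798 RPM in Ras +/+, 0.757 RPM in Ras +/- and 1.15 RPM in Ras -/-, against 222 RPM in immortalized +/+, 24.3 RPM in immortalized +/- and 95.5 RPM in immortalized -/- cells. Gnas, which encodes a stimulatory G protein, and Igf2r, the receptor that clears Igf2, were not called in the +/+ pair, with log2 ratios of -0.56 and -0.32.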
